A study of Mus musculus with 2 samples.

Results

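The 10 genes described here, Dio2, Ppargc1a, Prdm16, Ebf2, Cox7a1, Cox8b, Cidea, Elovl3, Adrb3 and Kcnk3, belong to the thermogenic programme of brown and beige adipocytes beyond Ucp1, and were chosen by name. All 10 of 10 were listed in both matrices, which share 27995 gene names. Their raw counts were read in 2 single-cell libraries of primary preadipocyte cultures, 1 from inguinal white adipose tissue (iWAT) and 1 from interscapular brown adipose tissue (iBAT). The cultures were stromal vascular cells (the cells left when floating adipocytes are removed from digested fat) of pooled wild-type C57BL/6N mice aged 8 to 12 weeks and were grown to 80% confluency. Each library merged 4 tagged treatments of 10000 cells each, untreated, FGF1, FGF2 and FGF8 (5.5 nM fibroblast growth factor for 48 h). The published methods name vehicle, FGF1 and FGF2 only, and the files used here tie no cell to a treatment. Each depot was thus 1 sample, no treatment was compared with another, and no difference between the depots has a replicate check. All levels are unique molecular identifiers (UMIs, 1 per captured transcript) of a gene per 1000000 UMIs of the cells named (CPM). Intervals beside levels are 95% exact Poisson intervals, those beside ratios and shares are exact binomial ones, and all of them cover counting error only.

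Brown and beige adipocytes burn fuel for heat. Noradrenaline acts on them through the beta-3 adrenergic receptor (Adrb3) and cyclic AMP, lipolysis follows, and the mitochondria respire uncoupled from ATP synthesis. Among the genes studied, Prdm16 and Ebf2 encode transcription factors of the brown fat fate and Ppargc1a encodes a coactivator of mitochondrial biogenesis. Dio2 encodes a deiodinase that activates thyroid hormone inside the cell, and Kcnk3 a two-pore potassium channel of brown fat. Cox7a1 and Cox8b encode cytochrome c oxidase subunit isoforms of heart, skeletal muscle and brown fat, Cidea a lipid droplet protein and Elovl3 a very long chain fatty acid elongase. Several of these genes are therefore also known from cells other than adipocytes, which is why they were followed across the cell classes of the cultures.

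The RefSeq promoter table (build GRCm38.p6) holds 5 of the 10 members. Windows are shown for Dio2, the member with the largest depot ratio in the stroma, and for Cox8b and Cox7a1, the oxidase subunit genes of muscle and brown fat. Each window runs from 250 bases before to 50 bases after the start that this table uses, which for Dio2 and Cox7a1 is not the outermost start of the gene in the annotation given next, is written 5′ to 3′ on the strand of the gene, and was placed by an exact match in GRCm39, the assembly that the submitters' processing notes call mm39. Dio2 lies on chromosome 12 at 90691322 to 90705819, minus strand, and its window at chr12:90705763-90706062. Cox8b lies on chromosome 7 at 140477069 to 140480359, minus strand, and its window at chr7:140480310-140480609. Cox7a1 lies on the plus strand of the same chromosome at 29883569 to 29885503, and its window at chr7:29883346-29883645. Capitals mark TGACGTCA (the cAMP response element) in Dio2 and CAGCTG (the E-box letters preferred by MyoD) in Cox8b. The Cox7a1 window holds neither and has no capitals.
Dio2: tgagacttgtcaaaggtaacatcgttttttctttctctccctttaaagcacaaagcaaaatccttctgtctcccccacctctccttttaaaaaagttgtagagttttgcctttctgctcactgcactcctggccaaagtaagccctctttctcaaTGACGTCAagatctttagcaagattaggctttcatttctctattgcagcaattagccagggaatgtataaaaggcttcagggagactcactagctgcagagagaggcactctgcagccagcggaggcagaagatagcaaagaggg
Cox8b: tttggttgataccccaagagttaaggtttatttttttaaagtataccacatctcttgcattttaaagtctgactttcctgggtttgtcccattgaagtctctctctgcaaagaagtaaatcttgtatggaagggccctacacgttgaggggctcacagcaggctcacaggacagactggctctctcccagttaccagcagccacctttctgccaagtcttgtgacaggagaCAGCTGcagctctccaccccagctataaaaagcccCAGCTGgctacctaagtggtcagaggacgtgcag
Cox7a1: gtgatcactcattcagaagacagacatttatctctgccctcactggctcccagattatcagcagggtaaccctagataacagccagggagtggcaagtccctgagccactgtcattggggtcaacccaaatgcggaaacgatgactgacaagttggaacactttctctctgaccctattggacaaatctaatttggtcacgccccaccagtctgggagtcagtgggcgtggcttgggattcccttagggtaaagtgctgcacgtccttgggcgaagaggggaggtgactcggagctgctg
Both strands were searched. The Dio2 window holds TGACGTCA once, starting 95 bases before the start that the table uses, and 1.79% of all 32851 windows in the table hold it. The Cox8b window holds CAGCTG at 2 places, 19 bases before that start and at base 17 after it, and 16.3% of all windows hold these letters. None of CAGCTG, TGACGTCA and CCCNNGGG (the centre of the EBF motif, found in 13.7% of windows) is in the Cox7a1 window. The matches are a description of letters and do not overlap one another.

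After removal of cells with 200 genes or fewer, 7500 genes or more, or 30% or more mitochondrial UMIs, 29744 cells of iWAT (median 16204 UMIs) and 28215 cells of iBAT (median 27235 UMIs) were left, and 8 cell barcodes occurred in both libraries. Cells were put into 6 classes by at least 1 UMI of gate genes. A cell with gate genes of more than 1 lineage was left out of every class (4102 cells in iWAT and 901 in iBAT). Cells with Adipoq and Plin1 together were an exception, as they stayed in their class when they also held Pdgfra or Dpp4. That class is thus not free of the stromal gate gene. Cells that met no gate formed an ungated rest (7514 and 1559 cells). The class with Adipoq and Plin1 together, the mark of fat-filling cells, held 84 cells in iBAT, or 86 with the 2 that also carried Myod1 or Sox10. It held 0 in iWAT, where 34 cells of any class held Adipoq and 42 held Plin1. Taken as a class sum, the 84 cells had all 10 other adipocyte markers (Fabp4, Lpl, Cidec and others) at 10 CPM or more and at 2-fold or more over the stroma. Their summed level was 24193.5 CPM against 458.8 CPM in other Pdgfra+ cells of that library. This does not hold for each cell, as the bins by gate UMIs below show. Pdgfra marked the stromal cells. Those with Dpp4, a gene of interstitial progenitors, numbered 4086 in iWAT and 1049 in iBAT, and the other Pdgfra+ cells 11340 and 23917. None of the 6 further interstitial progenitor markers was 2-fold higher in Dpp4+ than in other Pdgfra+ cells of either library, so the class is called by its gate. The 176 Myod1+ cells of iBAT had 8 of 8 myogenic markers at 2-fold or more over other Pdgfra+ cells, and the 522 Sox10+ cells of iBAT 7 of 7 Schwann cell markers. Both classes also held immune cell markers, with 5 of 6 and 4 of 6 at 2-fold or more and summed levels of 410.7 and 198.4 CPM against 67.5 CPM in other Pdgfra+ cells of iBAT, and the part of these in the results was not tested. The 244 Sox10+ cells of iWAT had 7 of 7 Schwann cell markers but also 8 of 8 epithelial markers at 2-fold or more, and the 2456 Epcam+ cells of iWAT had 8 of 8 epithelial markers. The 2 Myod1+ cells of iWAT and the 7 Epcam+ cells of iBAT (all 8 epithelial markers at 0, all 5 endothelial markers 2-fold or more higher) were under the minimum of 50 cells and were not compared. The iWAT and iBAT libraries also differ in sex-linked transcripts, where Xist had 344.6 CPM in the former and 0.0505 in the latter and Ddx3y had 1.20 and 81.9. Depot, these transcripts and depth cannot be told apart in any ratio of iBAT to iWAT.

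**Figure D1:**
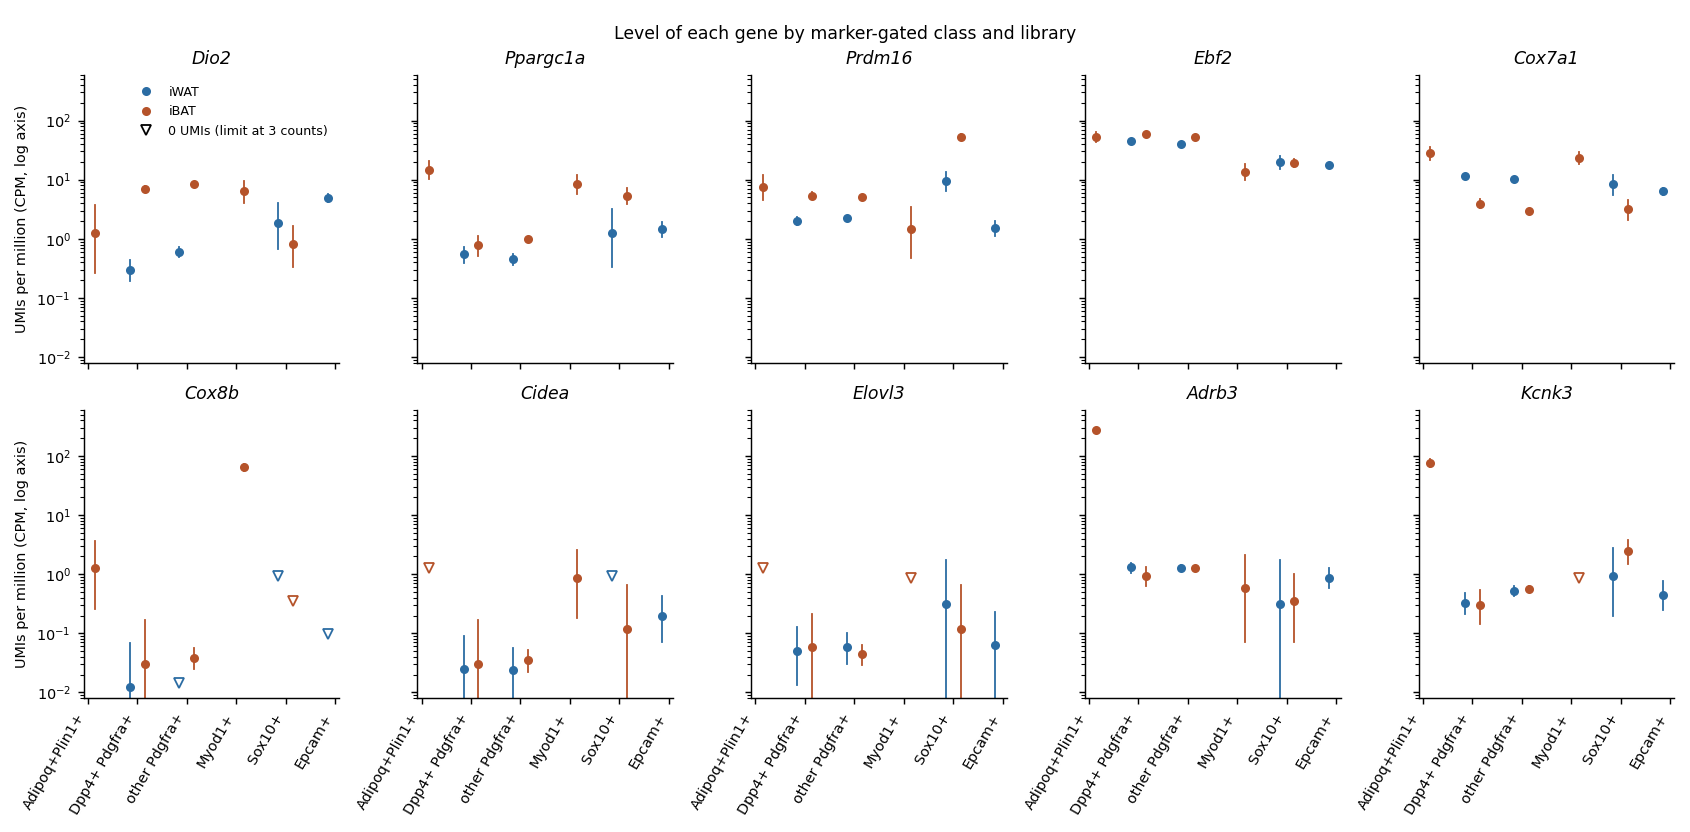
Level of each of the 10 genes (CPM, log axis) in the marker-gated classes with at least 50 cells, iWAT in blue and iBAT in orange. Points are class levels, bars 95% Poisson intervals, and open triangles the limit that 3 counts set where a class held 0 UMIs, and bars that reach below the axis are cut at its lower end. Adrb3 and Kcnk3 stand highest in Adipoq+Plin1+ cells, Cox8b in Myod1+ cells and Prdm16 in Sox10+ cells of iBAT.

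Between depots, the stromal cells of both classes had Dio2 and Prdm16 higher and Cox7a1 lower in iBAT. A gene was read as higher or lower where its ratio was 2 or more, or 0.5 or less, and its level 1 CPM or more in at least 1 of the classes compared. A gene under 1 CPM in 1 of the 2 classes thus passed through the other class alone and could be called in that direction only. This was so for Dio2 in both stromal classes, at 0.602 and 0.297 CPM in iWAT, and for Dio2 and Kcnk3 in Sox10+ cells. It was also so for Adrb3 in Dpp4+ Pdgfra+ cells, at 0.922 CPM in iBAT, but Adrb3 was not called there. In other Pdgfra+ cells 5 of the 10 members reached that level, Dio2 and Prdm16 were higher in iBAT and Cox7a1 was lower, where 5.88% of the 13651 genes read were higher and 6.26% lower. In Dpp4+ Pdgfra+ cells the same 5 members reached it and the same 3 were called in the same directions, against 6.75% of genes higher and 6.55% lower. In Sox10+ cells 3 members were higher in iBAT (Ppargc1a, Prdm16 and Kcnk3) and 2 lower (Dio2 and Cox7a1), with 10.5% of genes higher and 17.8% lower, and that class did not hold the same mixture of cells in the 2 libraries. Of these 5 calls, 3 turned in direction and that of Prdm16 was lost under another choice of cells. With only Schwann-marked cells the log2 ratio of Prdm16 went from 2.48 to 0.09, that of Ppargc1a from 2.10 to -0.12 and that of Kcnk3 from 1.39 to -1.22, and with cells of several lineages given to 1 class by priority that of Dio2 went from -1.20 to 1.49. Between Dpp4+ and other Pdgfra+ cells no member was called. In iWAT 4 members reached 1 CPM, with 0.173% of genes higher and 0.535% lower, and in iBAT 5, with 0.343% and 0.627%.

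**Figure D2:**
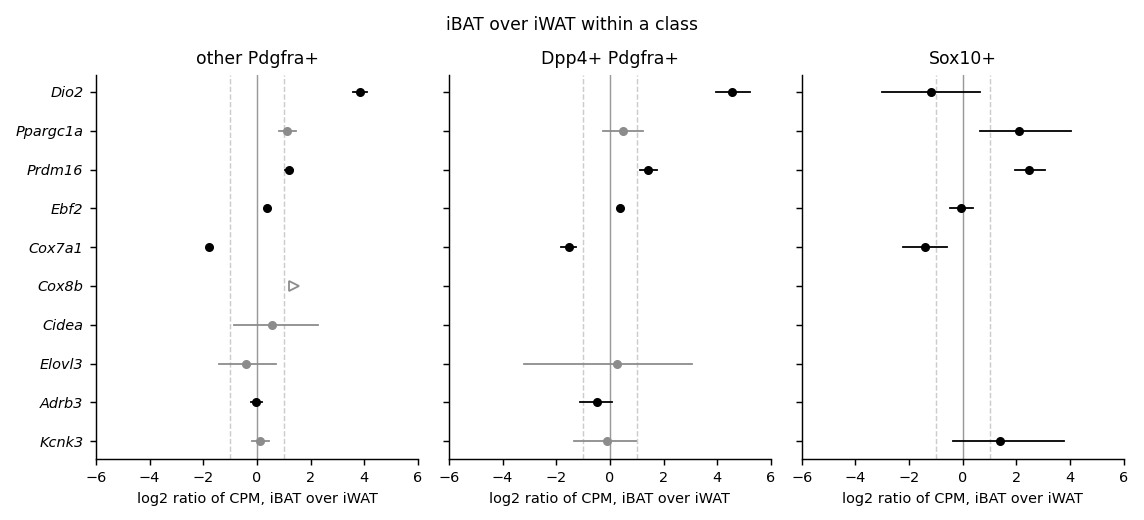
Log2 ratio of the CPM in iBAT to that in iWAT for each gene within other Pdgfra+, Dpp4+ Pdgfra+ and Sox10+ cells. Points are ratios, bars 95% intervals for counting error, grey marks genes under 1 CPM in both libraries, the open triangle a lower bound, and dashed lines 2-fold. Dio2 is at 14.3-fold and 23.5-fold in the stromal panels and Cox7a1 lies left of the lower dashed line in all 3 panels.

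Within a library, each of the other classes was set against other Pdgfra+ cells. In Adipoq+Plin1+ cells of iBAT 8 members reached 1 CPM, of which 5 were higher than in other Pdgfra+ cells (Adrb3, Kcnk3, Ppargc1a, Cox7a1 and Cox8b) and 1 lower (Dio2), against 12.6% of genes higher and 12.3% lower. In Myod1+ cells of iBAT 7 members reached it, 3 were higher (Cox8b, Ppargc1a and Cox7a1) and 3 lower (Ebf2, Prdm16 and Adrb3), against 16.4% and 21.1%. Of the 7 members that reached it in the Sox10+ comparison of iBAT, 3 were higher (Prdm16, Ppargc1a and Kcnk3) and 3 lower (Dio2, Ebf2 and Adrb3), against 10.4% and 15.7%. The Sox10+ comparison of iWAT gave 6, with 3 higher (Prdm16, Dio2 and Ppargc1a) and 2 lower (Ebf2 and Adrb3), against 9.69% and 4.76%. With gating on counts thinned to 10000 UMIs per cell only Prdm16 was still called there, and with gates by priority Prdm16, Dio2 and Adrb3. In Epcam+ cells of iWAT 2 of the 6 that reached it were higher (Dio2 and Ppargc1a) and 1 lower (Ebf2), against 10.5% and 8.26%. With gates by priority only Dio2 was still called in that class. The comparisons within a library share the other Pdgfra+ cells. Kcnk3, Ppargc1a and Cox8b were under 1 CPM in those of iBAT, and Dio2 and Ppargc1a in those of iWAT. They passed the minimum only through the class set against them and could be called only as higher. Adrb3 was under 1 CPM in Myod1+, Sox10+ and Epcam+ cells, and Dio2 in Sox10+ cells of iBAT (0.815 CPM). Both genes passed there only through other Pdgfra+ cells and could be called only as lower. In the small classes 3 UMIs make 1.27 CPM (Adipoq+Plin1+), 0.871 CPM (Myod1+) and 0.935 CPM (Sox10+ of iWAT). Of all these calls, 5 rest on so few UMIs that the interval of the ratio includes 1. They are Adrb3 in Myod1+ cells (2 UMIs), Ppargc1a (4 UMIs) and Adrb3 (1 UMI) in Sox10+ cells of iWAT, and the depot ratios of Dio2 and Kcnk3 in Sox10+ cells. Comparisons that need Adipoq+Plin1+ cells of iWAT gave no value.

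**Figure D3:**
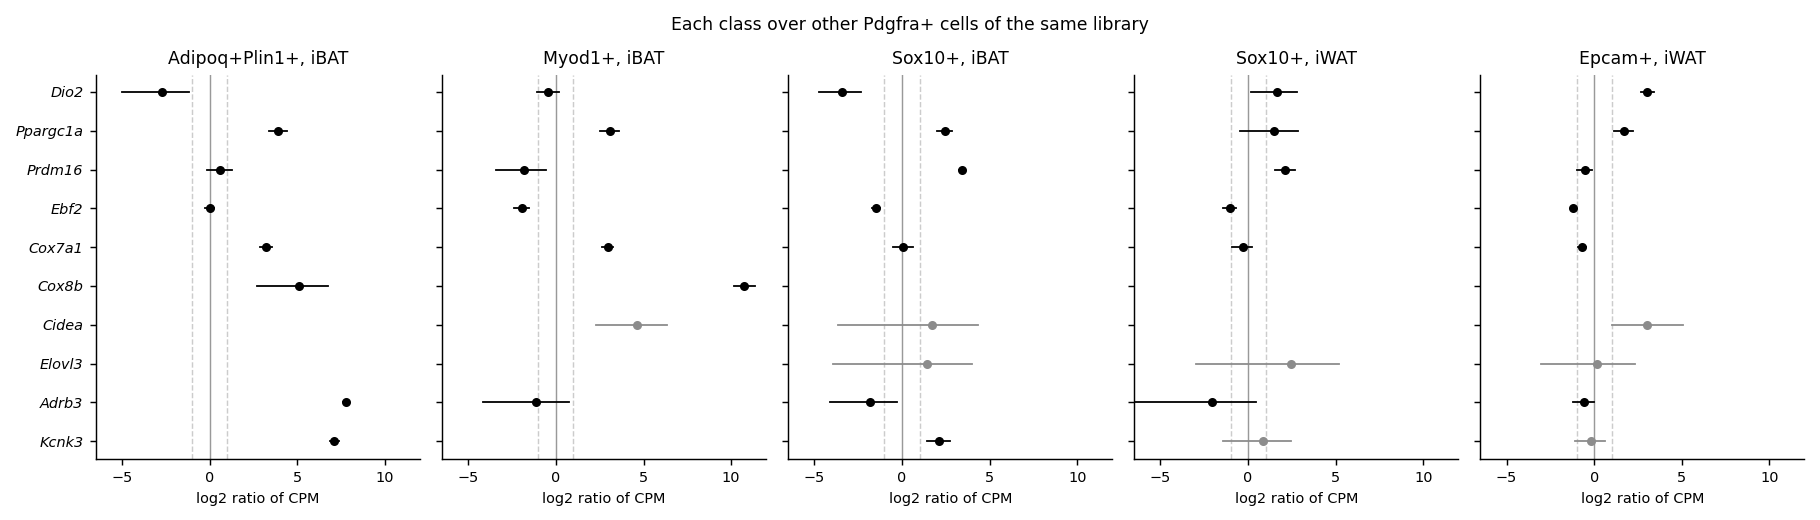
Log2 ratio of the CPM in each class to that in other Pdgfra+ cells of the same library. Points are ratios, bars 95% intervals for counting error, grey marks genes under 1 CPM in both classes, and dashed lines 2-fold. The largest ratio, 1695-fold, is Cox8b in Myod1+ cells, genes with 0 UMIs in a class are left blank, and 1 bar that leaves the axis is cut.

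Adrb3 is the receptor through which noradrenaline turns on thermogenesis. It was at 273 CPM (253 to 295, 646 UMIs) in Adipoq+Plin1+ cells of iBAT and at 1.26 CPM (1.18 to 1.35) in other Pdgfra+ cells of that library, a ratio of 217 (196 to 241). In the remaining classes it lay between 0.312 CPM in Sox10+ cells of iWAT and 1.30 CPM in Dpp4+ Pdgfra+ cells of iWAT, and the intervals of all neighbours in that order overlapped. The stromal cells of both depots did not differ by 2-fold, with a ratio of 0.980 (0.853 to 1.13) in other Pdgfra+ and 0.709 (0.459 to 1.07) in Dpp4+ Pdgfra+ cells. After each cell had been thinned at random to 10000 UMIs, 46.4% of the Adipoq+Plin1+ cells (35.5% to 57.6%, 39 of 84) held an Adrb3 UMI. The share was 1.10% (0.975% to 1.24%) in other Pdgfra+ cells and 0.575% (0.119% to 1.67%) in Sox10+ cells of iBAT, the class set beside it as one not known for the gene. Those Sox10+ cells also held stromal transcripts, with 7 stromal markers at 9037 CPM in sum against 8706 CPM in other Pdgfra+ cells of iBAT, so their shares give no clean background for any gene. These 2 intervals overlap, while by CPM the Sox10+ cells were lower, with a ratio of 0.277 (0.0571 to 0.813) that rests on 3 UMIs. The receptor was uneven over the 84 cells, with at least 1 UMI in 47 of them, a median of 7 in those and 53 in the highest, and 614 of the 646 UMIs lay in the 40 cells with 30 or more UMIs of Adipoq and Plin1. All 84 cells together, with 0.299% of the UMIs of the iBAT library, held 39.3% of its Adrb3 UMIs.

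Adrb1, which encodes the beta-1 adrenergic receptor, was at 9.31 CPM in Adipoq+Plin1+ and at 0.922 CPM in other Pdgfra+ cells of iBAT. In Myod1+ cells it stood at 1.16 CPM, and Sox10+ cells of iBAT held no UMI of it.

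Kcnk3, a leak potassium channel that sets membrane potential, lies on the plus strand of chromosome 5 at 30745243 to 30783689. It stood at 76.6 CPM (65.9 to 88.6) in Adipoq+Plin1+ cells, against 0.560 CPM (0.506 to 0.620) in other Pdgfra+ cells of iBAT and 0.520 CPM (0.427 to 0.628) in those of iWAT. The ratio within iBAT was 137 (114 to 164), while that between the depots was 1.08 (0.868 to 1.35). Myod1+ cells of iBAT held no Kcnk3 UMI, which allows up to 1.07 CPM. In the thinned counts 35.7% (25.6% to 46.9%) of Adipoq+Plin1+ cells held Kcnk3, compared with 0.422% (0.344% to 0.513%) of other Pdgfra+ and 1.34% (0.541% to 2.74%) of Sox10+ cells. The stromal share did not exceed that of Sox10+ cells. Kcnk3 was not limited to the adipocyte gate, since the ungated cells of iBAT held 18.8% of its UMIs in that library with 4.39% of all UMIs. Ungated cells with UMIs of at least 3 of the 6 mural markers (a group formed after the values had been seen) stood at 62.4 CPM (50.6 to 76.1, 71 cells) in iBAT and at 40.7 CPM (28.4 to 56.7, 58 cells) in iWAT. These intervals overlapped each other, and the iBAT one overlapped that of the Adipoq+Plin1+ cells. The latter had the 6 mural markers at 137.6 CPM in sum, against 57.3 CPM in other Pdgfra+ cells of iBAT. Of these markers 1 was at 2-fold or more, and the part of mural transcripts in the Kcnk3 level was not tested.

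Within the adipocyte gate, the point values of Adrb3 and Kcnk3 stood in the order of the gate UMIs of the cells, with overlapping intervals between the lower bins. With cells binned by their Adipoq plus Plin1 UMIs, Adrb3 was at 5.86 CPM (0.710 to 21.2) in the 12 cells with 2 to 4 such UMIs, 17.1 CPM (4.66 to 43.8) in the 8 cells with 5 to 9, 39.1 CPM (25.6 to 57.3) in the 24 cells with 10 to 29 and 547 CPM (504 to 592) in the 40 cells with 30 or more. Kcnk3 gave 2.93, 21.4, 36.1 and 134 CPM over the same bins. Cox7a1 was at 49.8 CPM (37.7 to 64.7) and Ppargc1a at 25.8 CPM (17.3 to 37.1) in the highest bin, and their intervals lay above those of the bin with 10 to 29 UMIs. They overlapped those of the bin with 5 to 9, which were 6.94 to 49.9 CPM for Cox7a1 and 1.04 to 30.9 CPM for Ppargc1a. Over the lower bins these 2 genes had no such order. Ebf2 was lower in the highest than in the lowest bin, with 82.1 CPM (54.6 to 119) in the lowest and 35.6 CPM (25.4 to 48.5) in the highest bin. Median depth lay between 25095 and 28202 UMIs per cell in the 4 bins. Fabp4 and Lipe, the fatty acid binding protein and the hormone-sensitive lipase, were at 17581 and 234 CPM in the highest bin and at 1208 and 2.93 CPM in the lowest. Of the 10 adipocyte markers, Cfd, Cidec, Car3 and Retn held 0 UMIs in the 12 cells of the lowest bin, which allows up to 10.8 CPM for each. The other adipocyte markers held UMIs there. The 482 cells of iBAT with only one of the 2 gate genes had Adrb3 at 2.32 CPM (1.61 to 3.25).

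**Figure D4:**
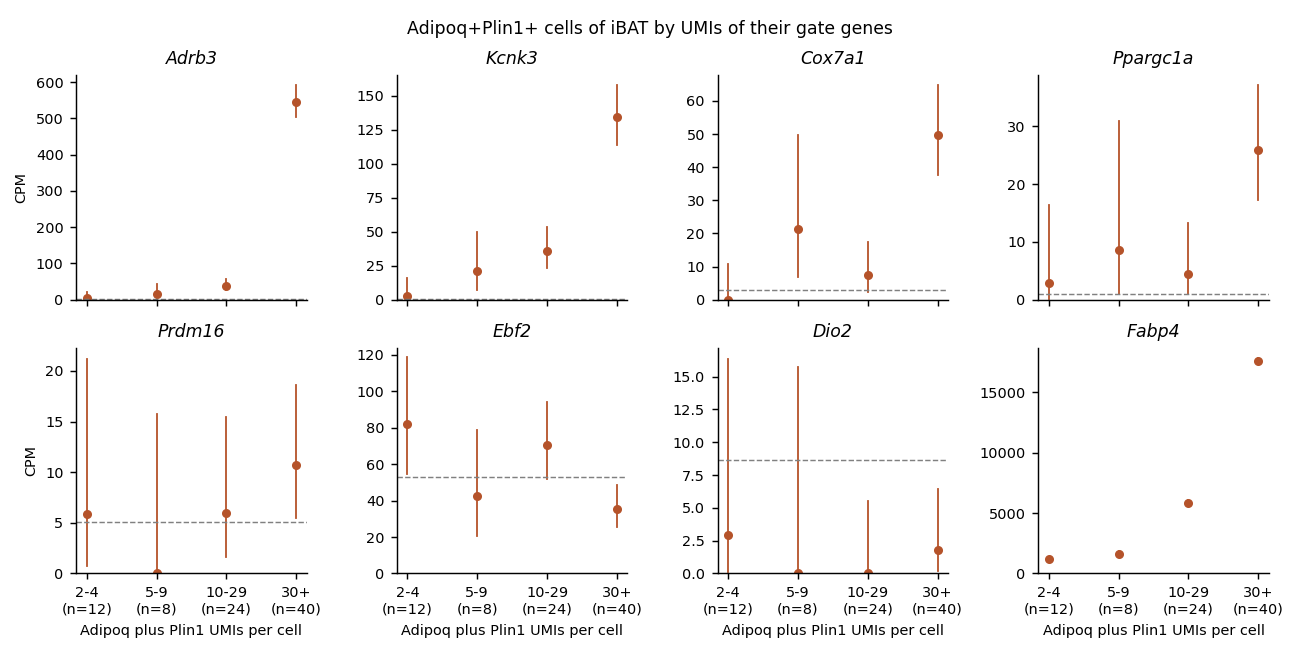
Level of 7 of the genes and of Fabp4 (CPM, linear axes that start at 0) in Adipoq+Plin1+ cells of iBAT, binned by the Adipoq plus Plin1 UMIs of a cell, with the number of cells under each bin. Bars are 95% Poisson intervals and the dashed line is the level in other Pdgfra+ cells of iBAT (not drawn for Fabp4). Adrb3, Kcnk3, Cox7a1 and Ppargc1a are highest in the 40 cells with 30 or more gate UMIs.

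Of the regulators, Ppargc1a, the coactivator of mitochondrial biogenesis (chromosome 5, 51611592 to 51725068, minus strand), was low in the stroma of both depots and had higher values in every other class. Other Pdgfra+ cells held 0.453 CPM (0.366 to 0.554) in iWAT and 0.992 CPM (0.919 to 1.07) in iBAT. The ratio of 2.19 (1.76 to 2.75) stayed uncalled because neither level reached 1 CPM, and in Dpp4+ Pdgfra+ cells it was 1.42 (0.839 to 2.36). Adipoq+Plin1+ cells of iBAT stood at 14.8 CPM (10.3 to 20.6), 14.9-fold (10.3 to 21.0) above other Pdgfra+ cells. Myod1+ cells followed at 8.42 CPM (5.64 to 12.1) and Sox10+ cells of iBAT at 5.36 CPM (3.92 to 7.15), and neighbours in this order had overlapping intervals. Epcam+ cells of iWAT were at 1.46 CPM (1.06 to 1.95), 3.22-fold (2.20 to 4.64) above the iWAT stroma. Its relative Ppargc1b was at 40.7 CPM in Myod1+ cells and at 2.15 CPM in other Pdgfra+ cells of iBAT.

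Prdm16, a zinc finger cofactor that specifies brown adipocytes (chromosome 4, 154400581 to 154721625, minus strand), was highest outside the adipose lineage. Sox10+ cells of iBAT stood at 53.7 CPM (48.9 to 58.8, 461 UMIs), 10.6-fold (9.63 to 11.7) above other Pdgfra+ cells at 5.05 CPM (4.88 to 5.22). Adipoq+Plin1+ cells were at 7.62 CPM (4.52 to 12.0), and their ratio to other Pdgfra+ cells was 1.51 (0.893 to 2.39). In iWAT the Sox10+ cells were at 9.66 CPM (6.56 to 13.7) and other Pdgfra+ cells at 2.21 CPM (2.01 to 2.42). In the stroma, iBAT exceeded iWAT by 2.29-fold (2.07 to 2.52) in other Pdgfra+ and by 2.70-fold (2.17 to 3.36) in Dpp4+ Pdgfra+ cells. Myod1+ cells held 5 UMIs of Prdm16, or 1.45 CPM (0.472 to 3.39). In the thinned counts 41.0% (36.7% to 45.4%) of Sox10+ cells of iBAT held a Prdm16 UMI, against 4.52% (4.26% to 4.79%) of other Pdgfra+ and 1.70% (0.353% to 4.90%) of Myod1+ cells. The Sox10+ cells hold 10.1% of the Prdm16 UMIs of iBAT with 1.08% of its UMIs.

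The depot ratio of Prdm16 in Sox10+ cells, 5.56 (3.86 to 8.28), came with a different mixture of cells. When Sox10+ cells were split by their markers, after the values had been seen, 55 cells of iWAT and 496 of iBAT held UMIs of at least 3 of the 7 Schwann cell markers. Prdm16 was at 53.4 CPM (34.9 to 78.2) in the former and at 56.9 CPM (51.8 to 62.4) in the latter, and the intervals overlap. The 79 iWAT cells with at least 3 epithelial markers were at 1.95 CPM (0.236 to 7.03) and the 110 with neither at 1.77 CPM (0.365 to 5.17). Cells with Sox10 and Pdgfra together, which belong to no class, had 17.3 CPM (15.3 to 19.4) in iBAT. In iWAT the 223 such cells without Epcam were lower, at 2.58 CPM (1.29 to 4.62). Of the iBAT cells with gate genes of several lineages, 16.2% were called doublets (barcodes that hold several cells), against 3.13% of other Pdgfra+ cells. The part of doublets in the levels of cells with Sox10 and Pdgfra, and of the cell mixture in the depot ratio, was not tested.

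**Figure D5:**
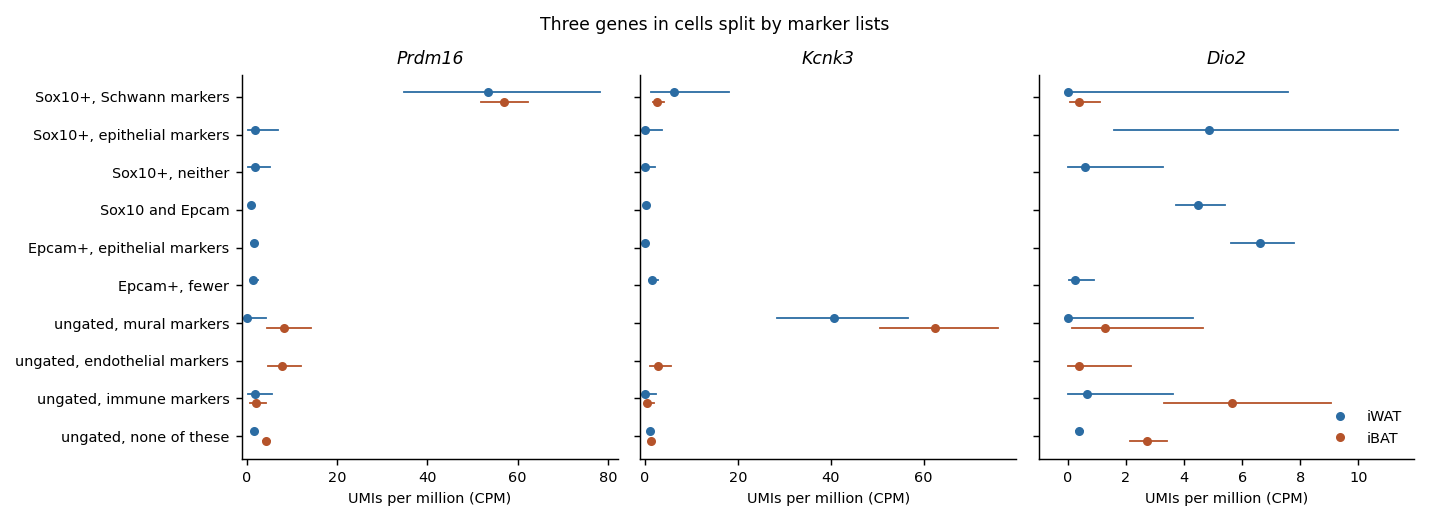
Level of Prdm16, Kcnk3 and Dio2 (CPM) in Sox10+, Epcam+ and ungated cells split by marker lists, groups of at least 50 cells, iWAT in blue and iBAT in orange. Bars are 95% Poisson intervals. Prdm16 stands highest in Sox10+ cells with Schwann cell markers at 53.4 and 56.9 CPM, Kcnk3 in ungated cells with mural markers at 40.7 and 62.4 CPM, and Dio2 of iWAT in cells with epithelial markers.

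Ebf2 marks brown and beige precursors (chromosome 14, 67470736 to 67668394, plus strand) and was well expressed in the stroma of both depots. Other Pdgfra+ cells were at 40.9 CPM (40.0 to 41.8) in iWAT and 52.8 CPM (52.2 to 53.3) in iBAT, a ratio of 1.29 (1.26 to 1.32), and Dpp4+ Pdgfra+ cells at 45.9 and 60.0 CPM, a ratio of 1.31 (1.24 to 1.38). Adipoq+Plin1+ and other Pdgfra+ cells had a ratio of 1.00 (0.835 to 1.20). Ebf2 was lower in all other classes, at 13.7 CPM (10.03 to 18.2) in Myod1+, 19.0 CPM (16.2 to 22.1) in Sox10+ cells of iBAT and 17.8 CPM (16.3 to 19.3) in Epcam+ cells of iWAT. Their ratios to other Pdgfra+ cells were 0.259 (0.190 to 0.344), 0.360 (0.307 to 0.420) and 0.434 (0.398 to 0.474). Its paralogs Ebf1 and Ebf3 were lower in Myod1+ cells too, at 65.1 and 14.5 CPM against 204 and 30.7 CPM in other Pdgfra+ cells of iBAT.

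Dio2 had the largest depot ratio in the stroma among the members that reached 1 CPM. Other Pdgfra+ cells held 125 UMIs in iWAT, 0.602 CPM (0.501 to 0.717), and 5884 in iBAT, 8.61 CPM (8.39 to 8.83). The level in iBAT was 14.3-fold (12.0 to 17.2) higher, and in Dpp4+ Pdgfra+ cells 23.5-fold (15.4 to 37.4), from 0.297 CPM (0.190 to 0.442) in iWAT to 6.99 CPM (6.12 to 7.94). In the thinned counts 5.98% (5.68% to 6.29%) of other Pdgfra+ cells of iBAT and 0.399% (0.285% to 0.543%) of those of iWAT held Dio2. Sox10+ cells of iBAT held a Dio2 UMI in 0.383% (0.0464% to 1.38%), while in iWAT 0 of 139 Sox10+ cells had one, which allows a share of up to 2.16%. In the iBAT stroma Dio2 was uneven, with at least 1 UMI in 2780 of 23917 cells, a median of 1 UMI in those and 47 in the highest cell.

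In iBAT the Adipoq+Plin1+ cells held only 3 Dio2 UMIs, 1.27 CPM (0.262 to 3.71), a ratio of 0.147 (0.0304 to 0.431) to other Pdgfra+ cells. Myod1+ cells of iBAT stood at 6.39 CPM (4.00 to 9.68), which did not differ from the stroma within counting error, and Sox10+ cells at 0.815 CPM (0.328 to 1.68). In iWAT the highest level lay in the epithelial gate, where Epcam+ cells had 153 UMIs at 4.95 CPM (4.20 to 5.80), 8.22-fold (6.45 to 10.5) above other Pdgfra+ cells. Epcam+ cells with at least 3 epithelial markers were at 6.63 CPM (5.61 to 7.77, 1938 cells) and those with fewer at 0.246 CPM (0.0298 to 0.889, 518 cells). Cells of iWAT with both Sox10 and Epcam but no Pdgfra were at 4.50 CPM (3.71 to 5.40, 2067 cells). Epcam+ cells and cells of several lineages together carried more of the Dio2 of iWAT, 28.8% and 33.8% of its UMIs, than the other Pdgfra+ cells with 23.5%. In iBAT 92.1% of Dio2 lay in other Pdgfra+ cells, which hold 86.3% of all UMIs there.

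Dio3 encodes the deiodinase that inactivates thyroid hormone, the opposite reaction. It was at 3.14 CPM in other Pdgfra+ cells of iWAT and 23.5 CPM in those of iBAT, a ratio of 7.49, and at 4.62 and 30.4 CPM in Dpp4+ Pdgfra+ cells. Both deiodinase genes were thus higher in the iBAT stroma, and both were lower in Adipoq+Plin1+ cells of iBAT, where Dio3 was at 1.69 CPM. In Myod1+ cells Dio3 was at 0.871 CPM, whereas Dio2 was at the stromal level. The third deiodinase gene, Dio1, had 1 UMI in each stromal class of iWAT, 8 UMIs in other Pdgfra+ cells of iBAT and 0 in every other class compared, which allows up to 1.56 CPM in Adipoq+Plin1+ cells.

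Cox8b was close to absent outside the myogenic gate. Myod1+ cells of iBAT held 222 UMIs, 64.5 CPM (56.3 to 73.6), against 26 UMIs or 0.0380 CPM (0.0249 to 0.0558) in other Pdgfra+ cells, a ratio of 1695 (1126 to 2652). In the thinned counts 26.7% (20.3% to 33.9%) of Myod1+ cells and 0.0376% (0.0172% to 0.0714%) of other Pdgfra+ cells held it. Myod1+ cells with at least 3 of the 8 myogenic markers carried all 222 UMIs, in 71 of 167 cells, and the 9 cells with fewer markers none. Cells with Myod1 and Pdgfra together were at 14.5 CPM (11.4 to 18.2, 183 cells). The Myod1+ class therefore held 67.3% of the Cox8b UMIs of iBAT and this mixed group 22.4%, with 0.435% of all UMIs in the former. Called doublets made up 16.2% of all iBAT cells of several lineages and 0.568% of Myod1+ cells, and their part in the level of the mixed group was not tested. In iWAT the whole library had 7 Cox8b UMIs, of which 4 lay in its 2 Myod1+ cells. Adipoq+Plin1+ cells of iBAT held 3 UMIs, or 1.27 CPM (0.262 to 3.71), a ratio of 33.4 (6.46 to 109) to the stroma that rests on those 3 UMIs.

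Cox7a1 was the only member lower in the brown depot in all 3 classes compared. Other Pdgfra+ cells were at 10.3 CPM (9.89 to 10.8) in iWAT and 3.01 CPM (2.88 to 3.14) in iBAT, a ratio of 0.291 (0.274 to 0.309). It was 0.344 (0.285 to 0.413) in Dpp4+ Pdgfra+ and 0.374 (0.211 to 0.662) in Sox10+ cells. Within iWAT the gene was spread over all classes, at 11.5 CPM in Dpp4+ Pdgfra+, 8.41 CPM in Sox10+ and 6.34 CPM in Epcam+ cells. The thinned shares there were 9.38% (8.82% to 9.97%) in other Pdgfra+ and 9.35% (5.07% to 15.5%) in Sox10+ cells, and the intervals overlap. The Sox10+ cells gave no clean background here, since their summed level of 7 stromal markers was 11973 CPM against 20159 CPM in other Pdgfra+ cells. Shares in iBAT were 2.66% (2.46% to 2.88%) and 3.07% (1.76% to 4.93%). Adipoq+Plin1+ cells of iBAT at 27.9 CPM (21.6 to 35.5) and Myod1+ cells at 23.2 CPM (18.4 to 28.9) stood above all other classes compared, 9.29-fold (7.16 to 11.9) and 7.73-fold (6.10 to 9.67) over other Pdgfra+ cells, and did not differ from each other within counting error. The 58 ungated cells of iWAT with mural markers, outside these classes, were at 25.6 CPM (16.0 to 38.8, 22 UMIs), and the 71 of iBAT at 2.57 CPM (0.701 to 6.59).

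For both subunits the widely expressed isoform is also measured. Cox7a1 made up 8.93% (6.97% to 11.2%) of the Cox7a1 plus Cox7a2 UMIs in Adipoq+Plin1+ and 7.37% (5.89% to 9.09%) in Myod1+ cells of iBAT, but 1.54% (1.48% to 1.61%) in other Pdgfra+ cells of iBAT and 4.97% (4.76% to 5.17%) in those of iWAT. Cox8b made up 10.8% (9.53% to 12.3%) of the Cox8b plus Cox8a UMIs in Myod1+ cells, 0.131% (0.0270% to 0.382%) in Adipoq+Plin1+ cells and 0.00786% (0.00513% to 0.0115%) in other Pdgfra+ cells of iBAT. The adipocyte and myogenic gates were thus alike in the first isoform share and far apart in the second. The widely expressed partners varied less, with Cox7a2 between 153 and 292 CPM and Cox8a between 393 and 970 CPM over the classes compared.

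Cidea and Elovl3, which act on lipid droplets and on fatty acid chains in mature brown fat, were under 1 CPM in every class compared where they held a UMI. Other Pdgfra+ cells held 5 Cidea UMIs in iWAT and 24 in iBAT, 0.0241 CPM (0.00782 to 0.0562) and 0.0351 CPM (0.0225 to 0.0523), and 12 and 30 UMIs of Elovl3. Adipoq+Plin1+ cells held 0 UMIs of Cidea, Elovl3 and Ucp1, which allows up to 1.56 CPM for each, whereas the related lipid droplet gene Cidec had 75 UMIs at 31.7 CPM there. Epcam+ cells of iWAT held 6 Cidea UMIs, 0.194 CPM (0.0712 to 0.423), and Myod1+ cells of iBAT 3. No call was made for either gene in any comparison.

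Per cell, the members met most often in the adipocyte gate. At 10000 UMIs per cell, Adipoq+Plin1+ cells of iBAT held UMIs of 1.60 members on average, 52.4% held 2 or more and 17.9% none. The mean was 0.531 members in other Pdgfra+ cells of iBAT (6.10% with 2 or more), 0.619 in Myod1+ and 0.632 in Sox10+ cells of iBAT, and 0.448 in other Pdgfra+ cells of iWAT. Ebf2 made up much of the stromal value, since it alone was found in 37.4% of other Pdgfra+ cells of iBAT.

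The rest of the thermogenic programme was read from 113 further gene names, of which 109 are listed in both matrices. A name that is not listed can be another name of a listed gene, so it need not be a gene missing from the data. The list includes 10 names of repressors and white-fate regulators, so not every higher gene is one that favours thermogenesis. In other Pdgfra+ cells 16 of the 84 that reached 1 CPM were higher in iBAT and 8 lower, and their median log2 ratio was 0.12, against 0.06 over all genes read, of which 5.88% were higher and 6.26% lower. Higher genes included Bmp4, a morphogen of the adipose lineage (10.3 and 0.188 CPM in iBAT and iWAT), Cebpa, a transcription factor of adipogenesis (69.1 and 10.9 CPM), and the fatty acid transporter Cd36 (8.33 and 1.33 CPM). Alpl, the phosphatase placed in the creatine cycle of brown fat, was at 5.86 and 0.799 CPM. Among the lower genes, Hoxc10, a positional gene that represses browning, had 0.380 CPM in the brown depot against 152 CPM in the white one, Fgf21 0.404 against 14.2 CPM, and Plac8, a regulator upstream of Cebpb, 102 against 559 CPM. In Dpp4+ Pdgfra+ cells 16 of 83 were higher and 10 lower, with a median log2 ratio of 0.11 against 0.05 over all genes, of which 6.75% were higher and 6.55% lower, and with Lhx8, a marker of brown precursors, at 23.1 and 5.22 CPM. Among Dpp4+ against other Pdgfra+ cells none of the 80 genes was higher in either library, 1 was lower in iWAT, and Cd36 (1.75 and 8.33 CPM) and Bmp4 (4.82 and 10.3 CPM) were lower in iBAT. Of all genes read there, 0.173% were higher and 0.535% lower in iWAT, and 0.343% and 0.627% in iBAT. In Sox10+ cells 10 of 86 pathway genes were higher in iBAT than in iWAT and 17 lower, with a median log2 ratio of -0.06 against -0.01 and 10.5% of all genes higher and 17.8% lower.

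In Adipoq+Plin1+ cells 36 of 91 pathway genes were higher than in other Pdgfra+ cells and 8 lower, with a median log2 ratio of 0.51 against -0.07 over all genes read, of which 12.6% were higher and 12.3% lower. The effectors gave 17 higher and 3 lower of 37, led by Cidec, Cd36 (1548 CPM), Fabp4 and Lipe (119 and 1.23 CPM), and Pparg was at 507 and 30.1 CPM. Several of these are markers of adipocytes in general. Cidec, Cd36, Fabp4, Lipe and Pparg were among the adipocyte markers already read above as 2-fold or more higher, so their calls are not new here. Repressors and white-fate regulators gave 4 higher and 1 lower of 8. Beige or brown surface and secreted markers gave 3 higher and 2 lower of 9, with a median log2 ratio of -0.33. Myod1+ cells gave 24 higher and 27 lower of 89, with a median of 0.04 against -0.14 and 16.4% of all genes higher and 21.1% lower. Cox6a2, a muscle and brown fat oxidase subunit, stood at 300 CPM (2.29 CPM in other Pdgfra+ cells), Gatm, the first enzyme of creatine synthesis, at 656 CPM (5.06 CPM), Fgf21 at 41.0 CPM (0.404 CPM) and the mitochondrial creatine kinase Ckmt2 at 7.84 CPM (0.183 CPM). Sox10+ cells of iBAT gave 12 higher and 25 lower of 81, with a median of -0.25 against -0.05 and 10.4% of all genes higher and 15.7% lower, and Gatm was at 639 CPM there as well. Sox10+ cells of iWAT gave 11 higher and 9 lower of 86, with a median of -0.04 against 0.00 and 9.69% of all genes higher and 4.76% lower. Epcam+ cells gave 11 higher and 17 lower of 83, with a median of -0.09 against 0.01 and 10.5% of all genes higher and 8.26% lower. Both classes had Ucp2 among the higher genes at 232 and 201 CPM against 12.2 CPM in other Pdgfra+ cells.

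The genes whose log2(CPM + 1) profile was closest to a member over the 9 classes of at least 50 cells were sought among 10899 genes that reached 10 CPM in a class, and Pearson's r is given as a description of classes that share 2 libraries. Adrb3 was closest to Hcar1 (r = 0.998), a lactate receptor of adipocytes. Cox8b was closest to Pvalb (r = 1.00), a calcium buffer of muscle, and Cox7a1 to Chchd10 (0.976), a mitochondrial protein. The closest genes were Abhd12 for Prdm16 (r = 0.979), Lgi2 for Ebf2 (0.979), Dcaf10 for Ppargc1a (0.986) and Drap1 for Dio2 (0.933). For Adrb3 and Cox8b, 19 and 20 genes had r above 0.99, and in each case the level of 1 class stood far above the rest.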

How the data were processed

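Stromal vascular cells from iWAT and iBAT were profiled with the BD Rhapsody whole transcriptome assay, 1 library per depot. The authors aligned the reads on a cloud platform (tool version not given in the sources used here) and deposited raw UMI counts per gene and cell, and the submitters' processing notes name mm39 and Seurat 5.0.0. Cells with more than 200 and fewer than 7500 genes and under 30% mitochondrial UMIs were kept. Scrublet in scanpy 1.11.5 called 359 doublets in iWAT and 953 in iBAT, which were kept in the values given. Counts were summed per class and divided by the class total. With 1 library per depot there was no test, no p-value and no count model, and a fold of 2 was read against the share of all genes past it. Ratios against 0 used a floor of 3 counts over the class. The calling of folds was tested on simulated counts for Adipoq+Plin1+, Myod1+ and Dpp4+ Pdgfra+ cells over other Pdgfra+ cells of iBAT. Only genes at 10 CPM or more in other Pdgfra+ cells were simulated. Of the members Ebf2 alone reached that level there, so the simulation did not test calls at the levels of the others. For shares of cells, cells were thinned to 10000 UMIs and shallower ones left out (1311 other Pdgfra+, 246 Dpp4+, 105 Sox10+ and 1022 Epcam+ cells of iWAT, none of iBAT). Named beside the members were 11 related genes and, per comparison, up to 5 genes per direction from the list of 113, past 2-fold, at 5 CPM or more and with an interval that leaves out 1, and some results under these rules are not reported here. The members and lists were chosen with earlier results of these data known, and the comparisons of Myod1+, Sox10+ and Epcam+ cells were added after the data had been seen. TMM factors came from edgeR 4.0.16 as an alternative scaling.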

Additional observations from a re-analysis of the deposited data

Results flagged for a closer look

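Dio2 in Sox10+ cells stood on opposite sides of the stroma in the 2 libraries. The ratio of Sox10+ to other Pdgfra+ cells was 3.11 (1.12 to 6.95) in iWAT, from 6 UMIs in the Sox10+ cells, and 0.0947 (0.0381 to 0.195) in iBAT, from 7 UMIs. The Sox10+ cells themselves were at 1.87 CPM (0.686 to 4.07) in iWAT and 0.815 CPM (0.328 to 1.68) in iBAT, and the intervals overlap. Other Pdgfra+ cells, the denominator, were at 0.602 CPM (0.501 to 0.717) and 8.61 CPM (8.39 to 8.83), so the stromal levels stood apart. The difference between the libraries was not tested, since each depot is 1 sample. Of the 6 UMIs in iWAT, 5 lay in the 79 Sox10+ cells with at least 3 epithelial markers, at 4.87 CPM (1.58 to 11.4), and none in the 55 cells with at least 3 Schwann cell markers.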

How the results depend on the processing

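No paired analysis was possible because each depot has 1 library, and no replicate could be left out. The comparisons of Adipoq+Plin1+ cells between depots and within iWAT gave no value, since iWAT held 0 such cells. A minimum of 10 CPM in place of 1 CPM gave 1 called member in other Pdgfra+ cells between depots (3 in the report), 1 in Dpp4+ Pdgfra+ (3) and 1 in Sox10+ cells (5), and, against other Pdgfra+ cells, 3 in Myod1+ (6), 1 in Sox10+ of iWAT (5), 2 in Sox10+ of iBAT (6), 4 in Adipoq+Plin1+ (6) and 1 in Epcam+ cells (3), because fewer members were read. At that minimum 3.58% of all genes were higher and 4.22% lower between depots in other Pdgfra+, 3.8% and 4.52% in Dpp4+ Pdgfra+ and 9.25% and 10.5% in Sox10+ cells. Against other Pdgfra+ cells the shares were 12.8% and 19.7% (Myod1+), 5.26% and 2.15% (Sox10+ of iWAT) and 9.19% and 10.3% (Sox10+ of iBAT). They were 9.09% and 9% in Adipoq+Plin1+ and 7.47% and 5.98% in Epcam+ cells. No share of all genes is given for the settings that follow, so their counts cannot be set against such a share. With no minimum, 5 were called between depots in other Pdgfra+ cells, Ppargc1a and Cox8b being added, and 1 (Dio2) between Dpp4+ and other Pdgfra+ cells of iWAT. Gating on counts thinned to 10000 UMIs per cell gave 1 (Adrb3) for Dpp4+ cells of iBAT and 1 (Prdm16) for Sox10+ cells of iWAT. Giving each cell of several lineages to 1 class by a fixed priority gave 3 (Prdm16, Dio2 and Adrb3) for Sox10+ cells of iWAT, 1 (Dio2) for Epcam+ cells and 4 each for Myod1+ and Sox10+ cells of iBAT, and turned the depot log2 ratio of Dio2 in Sox10+ cells from -1.20 to 1.49. Keeping only Sox10+ cells with at least 3 Schwann cell markers, a setting chosen after seeing the data, gave 3 called members between depots (Ebf2 higher, Cox7a1 and Kcnk3 lower), with Prdm16 no longer called, and turned the log2 ratios of Ppargc1a from 2.10 to -0.12 and of Kcnk3 from 1.39 to -1.22. The cause of the last 3 reversals was not tested. Gates of 2 UMIs, a stricter cell filter, removal of doublets, the mean of cell CPM and median-of-ratios scaling shifted some of the counts, each by 1 member at most, and TMM scaling shifted none. Over 85 log2 ratios, 663 of 697 alternative values kept their direction. The factor of median-of-ratios scaling was -0.14 (log2) for the Myod1+ comparison, so dividing by it raises the log2 ratios there.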

Other observations

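Cells outside the 6 classes also carried some of the genes. All groups in this paragraph were formed after the values had been seen. Among ungated cells of iBAT, the 121 with at least 3 endothelial markers had Prdm16 at 7.75 CPM (4.74 to 12.0) and the 71 with mural markers at 8.36 CPM (4.45 to 14.3), while the 136 with immune markers stood at 2.00 CPM (0.733 to 4.35). Dio2 was at 5.66 CPM (3.30 to 9.06) in the immune-marked cells and at 0.388 CPM (0.00981 to 2.16) in the endothelial-marked ones. Adrb3 was at 9.31 CPM (4.02 to 18.4, 8 UMIs) in the 58 mural-marked cells of iWAT and at 3.22 CPM (1.04 to 7.50, 5 UMIs) in those of iBAT. Cells of iBAT with only one of Adipoq and Plin1 had Dio2 at 6.69 CPM (5.43 to 8.16), whereas the Adipoq+Plin1+ cells were at 1.27 CPM.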
